A study of Mus musculus with 28 samples.

Results

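The 7 miRNAs described here come from the miR-17~92 cluster and its paralogs, and they were taken by name from the deposited tables: mmu-mir-17-5p, mmu-mir-17-3p, mmu-mir-20a-5p, mmu-mir-19b-3p, mmu-mir-93-5p, mmu-mir-106b-3p and mmu-mir-106b-5p, written without the mouse prefix from here on. The 4 tables together listed 607 distinct miRNAs. The tables for co-ex males, KO females and KO males listed all 7, and the table for co-ex females listed 5, without miR-17-3p and miR-19b-3p. Each listed one had passed the filter on low values, so 5, 7, 7 and 7 were tested for a difference between O3 and FA, and none of them passed the threshold in any table. The smallest unadjusted p-values belonged to miR-106b-3p in co-ex females, with lower values after O3, and to miR-19b-3p and miR-93-5p in KO females, with higher and lower values after O3, all short of the threshold. In KO females miR-19b-3p had passed the filter through its O3 libraries alone, so that being tested already favoured a difference.

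The study asked how ozone alters the miRNAs of alveolar macrophages (AM) in males and females, with both human surfactant protein A genes present or with none. AM from lavage of mice aged 12 weeks were used for small RNA sequencing 4 h after the end of a 3 h exposure to filtered air (FA) or ozone (O3), which gave 28 libraries. Co-ex mice carried the human transgenes SP-A1 and SP-A2 (variants 6A2 and 1A0) on a C57BL/6J background without mouse SP-A, and KO mice had the same deletion and no transgene. Females were in a synchronized estrous cycle. There were 4 libraries in each of the groups co-ex females FA, co-ex females O3, co-ex males FA and co-ex males O3, and 3 in each of the groups KO females FA, KO females O3, KO males FA and KO males O3. The lack of mouse SP-A was thus shared by all 8 groups, surfactant protein A is known as a product of lung epithelial cells, and the promoter of the transgenes is not given in the sources used here.

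Human and mouse miR-17~92 is a polycistron: 1 primary transcript is cut into several hairpins, each of which can release a 5p and a 3p arm as a mature miRNA. The arm loaded into Argonaute pairs with target mRNAs mainly through its seed, so arms with the same seed share many predicted targets. Transcription of the cluster is driven by MYC and E2F factors, its miRNAs restrain Cdkn1a and Bcl2l11, and in the monocytic lineage they target RUNX1. The paralogous cluster miR-106b~25 lies within Mcm7, a replication licensing gene, and the third cluster, with miR-106a, lies on the X chromosome.

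The mature sequences from RefSeq (GRCm38.p6) are shown because the seed decides which of the members can be added together and because members that differ by a few bases share reads most easily. They run 5′ to 3′ with the seed, bases 2 to 8, in capitals.
miR-17-5p: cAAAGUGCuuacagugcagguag
miR-20a-5p: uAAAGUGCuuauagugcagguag
miR-93-5p: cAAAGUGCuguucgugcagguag
miR-106b-5p: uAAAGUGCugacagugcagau
miR-17-3p: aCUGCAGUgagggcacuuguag
miR-106b-3p: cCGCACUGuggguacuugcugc
miR-19b-3p: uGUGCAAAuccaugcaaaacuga

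The first 4 share the seed AAAGUGC, and the other 3 each have a seed of their own. On chromosome 14, miR-17-5p (chr14:115043684-115043706), miR-17-3p (chr14:115043721-115043742), miR-20a-5p (chr14:115044183-115044205) and 1 copy of miR-19b-3p (chr14:115044358-115044380) lie on the plus strand within 836 bases, in an exon of the lincRNA gene Mir17hg. On chromosome 5, miR-93-5p (chr5:138165574-138165596), miR-106b-3p (chr5:138165746-138165767) and miR-106b-5p (chr5:138165787-138165807) lie on the minus strand. The Mir106b hairpin is intronic in Mcm7, and the Mir93 hairpin overlaps an exon only of an Mcm7 transcript annotated as a retained intron. A second, identical copy of miR-19b-3p lies on the X chromosome (chrX:52741991-52742013, minus strand), outside any annotated host gene, and reads of the copies cannot be told apart.

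Among the members with the shared seed, miR-17-5p and miR-20a-5p differed at 2 of 23 bases (C1U and C12U, with the base of miR-17-5p first and positions counted from the 5′ end). From miR-93-5p to miR-17-5p there were 4 differences, G10U, U11A, U12C and C13A, and from miR-106b-5p to miR-17-5p there were 3 in the 21 bases compared, U1C, G10U and A20G. The closest relative outside the members was miR-106a-5p of the X chromosome, which differed from miR-17-5p at 1 base (U10A). It was listed in KO males alone, with 0 to 23 reads in a library, and miR-19a-3p, 1 base from miR-19b-3p (U11C, with the base of miR-19a-3p first), was likewise listed in KO males alone. How the counting split reads between such near copies is not given in the sources used here, so values of miR-17-5p and miR-19b-3p carry that uncertainty.

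The hairpins of miR-17 and miR-106b are shown because each gives 2 of the members, so that the ratio of the arms could be measured within a library. Capitals mark the mature arms, first the 5p and then the 3p arm.
Mir17: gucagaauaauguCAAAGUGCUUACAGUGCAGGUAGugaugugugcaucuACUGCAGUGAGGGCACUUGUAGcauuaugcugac
Mir106b: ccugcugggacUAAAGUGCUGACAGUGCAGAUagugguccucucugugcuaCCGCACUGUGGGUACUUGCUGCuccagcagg

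The libraries held from 41542 to 2082034 miRNA reads (median 490152), and 1 of the co-ex female O3 libraries, replicate 1, was the shallowest. Markers of myeloid cells, miR-223, miR-142a, miR-146a and miR-155, summed to between 2696 and 19939 RPM in all libraries (RPM are recovered reads scaled to one common total over the miRNAs of a library). Markers of other cells were present as well. KO male FA replicate 3 held 27262 RPM of epithelial markers against 2204 and 2685 in the other libraries of its group. That epithelial level was not particular to this library, since the KO male O3 libraries held 21562 to 27893 RPM. Co-ex female libraries held 12682 to 32452 after FA and 25420 to 49551 after O3. Co-ex male libraries held 4832 to 29097 and 3853 to 39436. KO male FA replicate 3 also held 25848 RPM of mesenchymal, 7177 of endothelial, 5752 of lymphocyte and 3865 of muscle markers. No other KO male library held more than 4826, 124, 116 and 321, in the same order. KO female O3 replicate 3 held 85312 RPM of muscle markers. KO female O3 replicate 2, with 111080 reads, was the shallowest KO library. Values with and without the single replicates named here are given below where a result rests on them. In such bulk libraries, fewer cells of one type and less of a miRNA per cell cannot be told apart. The labels speak of groups of 4 animals and do not tie each library to 1 animal, so the p-values measure the spread between these libraries.

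miR-93-5p was the most abundant member in every group, and the 4 members with the seed AAAGUGC drew most of their reads from it. It made up 59.0% to 90.6% of their reads over the 28 libraries, with a median of 81.8%. Together with miR-106b-5p, the other member of the chromosome 5 cluster with this seed, its share was 69.2% to 97.8%, with a median of 91.9%. Reads of different miRNAs were not corrected for how readily each sequence is ligated, so these are shares of reads.

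The summed level of the 4 members was highest in KO males, with 4114 ± 62.0 RPM (SD, n = 3) after FA and 4058 ± 679 (SD, n = 3) after O3. It was 3242 ± 371 (SD, n = 3) and 2486 ± 83.4 (SD, n = 3) in KO females, 1896 ± 1008 (SD, n = 4) and 1587 ± 896 (SD, n = 4) in co-ex males, and 1178 ± 552 (SD, n = 4) and 1546 ± 701 (SD, n = 4) in co-ex females, after FA and O3 in that order. Genotype and sex both coincide with the table, and the tables list different numbers of miRNAs (368 to 565), over which RPM are scaled. These levels are thus a description and were not tested between tables. The FA and O3 libraries of KO females did not overlap, with 3007 to 3669 RPM after FA and 2409 to 2575 after O3, whereas they overlapped in the other 3 tables. In the comparison of values below, the libraries of 31.3% of all miRNAs tested did not overlap in KO females. The share was 4.06% in co-ex females, 2.88% in co-ex males and 12.7% in KO males. In KO females miR-93-5p made up a mean of 86.8% of the sum after FA and 87.6% after O3, so the sum largely repeats that miRNA.

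**Figure D1:**
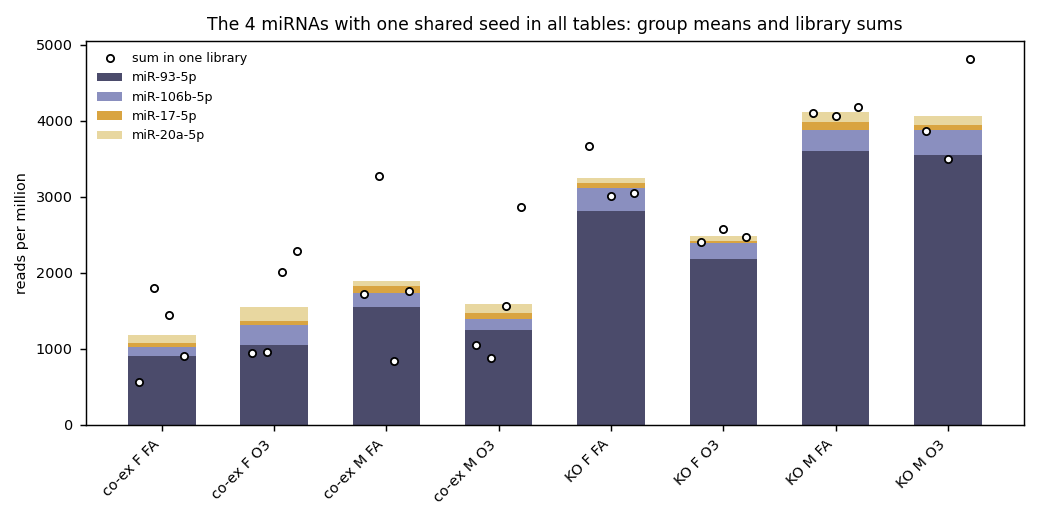
Stacked bars give the mean level in RPM of miR-93-5p, miR-106b-5p, miR-17-5p and miR-20a-5p in each of the 8 groups, and open circles the sum of the 4 in each library. miR-93-5p forms most of every bar, and the bars of KO males (4114 after FA and 4058 after O3) are the highest.

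The order of the single members was less even. By mean RPM, miR-93-5p ranked between 41 and 88 among the miRNAs of its table over the 8 groups, miR-106b-3p between 71 and 152, miR-106b-5p between 114 and 193, miR-20a-5p between 161 and 224 and miR-17-5p between 182 and 289. miR-17-3p ranked between 216 and 354 and miR-19b-3p between 224 and 365. Depth followed that order: miR-93-5p had at least 23 reads in each of its 28 libraries, while 10 reads or more were found in 20 of 28 libraries for miR-17-5p, in 14 of 20 for miR-17-3p and in 12 of 20 for miR-19b-3p. Libraries with no read of a member numbered 2 for miR-17-5p, 1 for miR-20a-5p, 3 for miR-17-3p and 3 for miR-19b-3p, and a count of 0 allows up to 3 reads by counting error alone. In KO females the members at the lower end of this order also had the widest intervals.

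**Figure D2:**
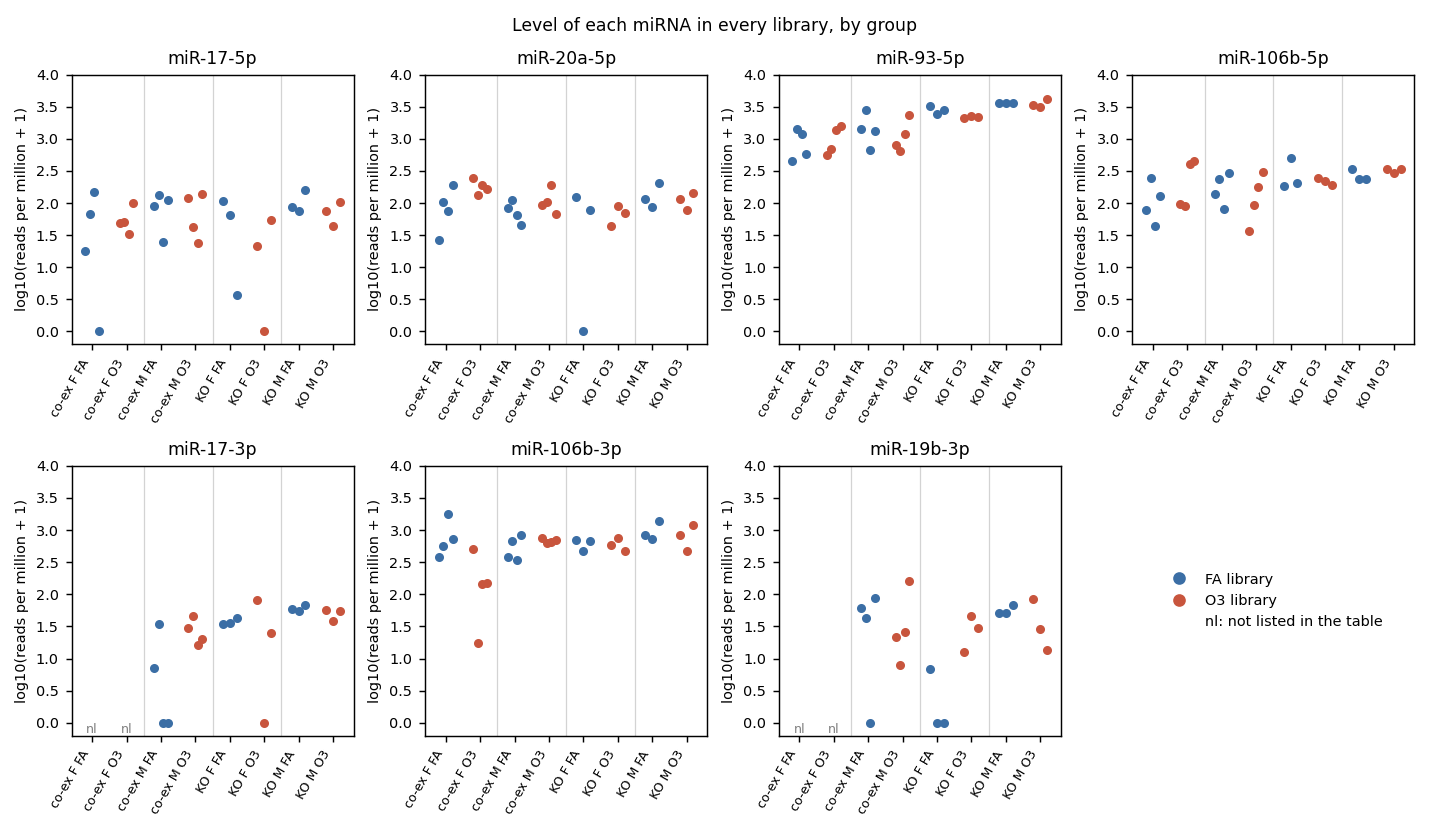
Each panel gives 1 miRNA, with log10 of RPM plus 1 in every library on the vertical axis and the 8 groups on the horizontal axis; blue points are FA and red points O3 libraries, and nl marks a table that does not list it. miR-93-5p has the highest mean in all groups, and libraries at 0 occur for miR-17-5p, miR-20a-5p, miR-17-3p and miR-19b-3p.

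O3 was then compared with FA within each table, on the deposited normalized values (reads divided by the size factor of the library). The changes are on the scale log2(value + 1), the test was that of limma across all miRNAs of the table that passed the filter, and an adjusted p under 0.1 counted as a call. In co-ex females 0 of 5 members were called, against 0.369% of the 271 miRNAs tested, and in co-ex males 0 of 7, against 0% of 312. In KO females 0 of 7 were called, against 13.2% of 319, and in KO males 0 of 7, against 0.909% of 440.

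At an unadjusted p under 0.05, limma named 1 member in co-ex females, 0 in co-ex males, 1 in KO females and 0 in KO males. The 1 in KO females, miR-19b-3p, passed the filter through its O3 libraries alone, so that being tested already favoured a difference. On the reads recovered from the values, edgeR's quasi-likelihood test and DESeq2 called 0 members in each table as well, and at that unadjusted level each of them named 1 in co-ex females and 0 in the other 3 tables. Of all miRNAs tested, the share at an unadjusted limma p under 0.05 was 5.90% for co-ex females and 3.53% for co-ex males. It was 25.7% for KO females and 7.27% for KO males. Leaving out any 1 library, in any table, gave 0 members called as well.

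The direction of the changes varied between tables. In KO males 6 of 7 members lay below 0, with a median log2 difference of -0.53 beside -0.04 over all miRNAs tested, of which 51.4% lay below 0. In KO females 5 of 7 lay below 0, with a median of -0.49 beside 0.06 over all, of which 47.0% lay below 0. In co-ex females 1 of 5 lay below 0, with a median of 0.70 beside -0.16 over all, of which 56.8% lay below 0, and in co-ex males 3 of 7, with a median of 0.22 beside 0.18 over all, of which 41.7% lay below 0. Without FA replicate 3, the KO male FA library with raised markers, 7 of 7 members lay below 0 there (median -0.25). The lowest adjusted p by limma was then 0.469, while the count of all miRNAs called went from 4 to 86. In KO females without O3 replicate 2, 4 of 7 lay below 0 with a median of -0.04 and 31 miRNAs were called, and without O3 replicate 3, 5 of 7 lay below 0 with a median of -0.40 and 25 were called, against 42 with all libraries. In co-ex males without FA replicate 3, the library with 126398 reads, 4 of 7 lay below 0 and the median was -0.54, so that its direction turned. The share of all miRNAs below 0 was not computed for the fits without a library, so their counts of members stand without that background.

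**Figure D3:**
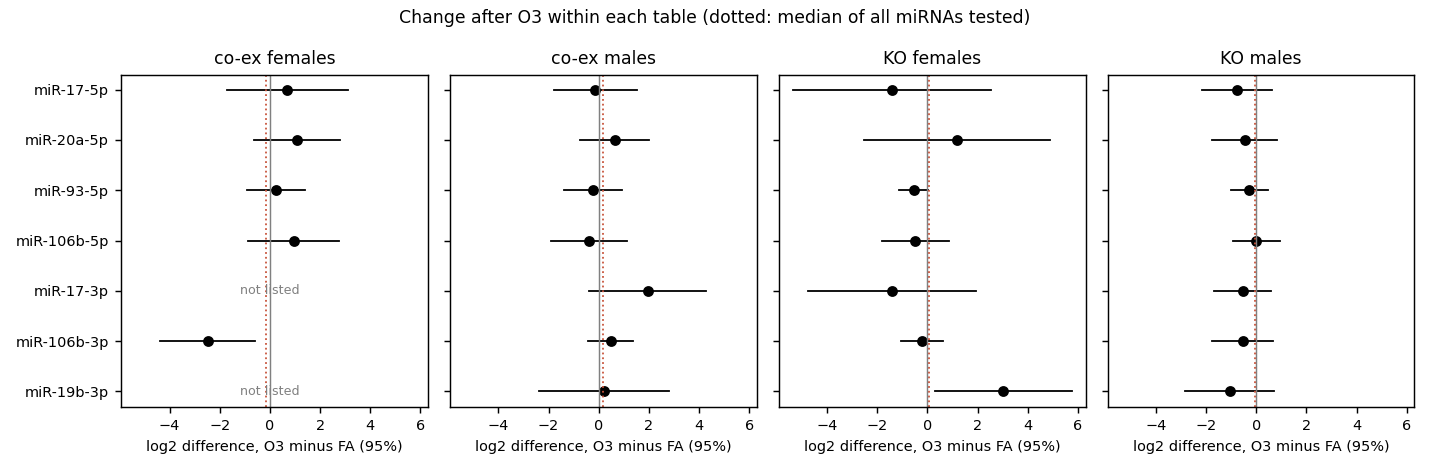
For each table the points give the log2 difference of O3 minus FA on the log2(value + 1) scale for each member, the bars its 95% interval from limma, and the dotted line the median over all miRNAs tested. The bars of miR-106b-3p in co-ex females (-4.37 to -0.60) and miR-19b-3p in KO females (0.28 to 5.75) do not reach 0, and the adjusted p of neither passed the threshold. In KO females miR-19b-3p passed the filter through its O3 libraries alone, which already favoured a difference.

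Of the members with the shared seed, miR-93-5p is processed from an intron of a gene for DNA replication and was measured most precisely. In KO females its values were 1843, 1450 and 1437 after FA and 1058, 1085 and 1059 after O3. All 3 O3 libraries lay below all 3 FA libraries. The log2 difference was -0.55 (SE 0.25, 95% interval -1.12 to 0.02) with an adjusted p of 0.206, so it did not pass the threshold, and without O3 replicate 3 it was -0.55 with an adjusted p of 0.365. For 2 of 7 members in this table, miR-93-5p and miR-19b-3p, the FA and O3 values did not overlap, against 31.3% of all miRNAs tested. Of these, miR-19b-3p passed the filter through its O3 libraries alone.

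KO female markers moved between the same libraries. Of the 9 tested markers of epithelial cells 8 were called higher after O3, and their sum went from between 1505 and 4627 RPM after FA to between 20962 and 36514 after O3, with miR-34b-5p at 0 in the 3 FA libraries. The myeloid markers summed to between 8568 and 12040 RPM after FA and between 7685 and 8949 after O3, and 0 of the 6 tested were called. The part of the epithelial markers in the values of miR-93-5p was not tested.

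miR-93-5p in KO males had values of 5052, 4866 and 5255 after FA and 3940, 3550 and 5167 after O3, with a log2 difference of -0.28 (SE 0.31, adjusted p = 0.952). The highest O3 library lay within the FA range. In co-ex males the values were 545, 928, 232 and 348 after FA and 284, 235, 437 and 748 after O3, with a log2 difference of -0.22 (SE 0.53, adjusted p = 0.944). In co-ex females they were 68.3, 236, 192 and 82.3 after FA and 92.5, 105.7, 205 and 253 after O3, with a log2 difference of 0.25 (SE 0.54, adjusted p = 0.913). The groups overlapped in both co-ex tables, where the values of 1 group also spread over a wider range for their size than in KO mice.

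miR-106b-5p, from the same primary transcript and with the same seed, was present at a fraction of miR-93-5p: the ratio of reads, miR-93-5p over miR-106b-5p, averaged between 5.11 and 13.6 over the 8 groups. In co-ex females its values were 11.8, 40.8, 6.98 and 17.9 after FA and 16.1, 13.8, 58.6 and 71.8 after O3. Replicates 3 and 4 of O3 lay above all FA libraries and replicates 1 and 2 among them, and the log2 difference was 0.94 (SE 0.85, adjusted p = 0.891).

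For miR-106b-5p in co-ex males the values were 52.5, 78.8, 27.2 and 77.5 after FA and 12.8, 34.2, 67.0 and 97.1 after O3 (log2 difference -0.39, SE 0.69, adjusted p = 0.944). In KO females 104, 302 and 107 after FA stood beside 124, 103 and 93.4 after O3 (log2 difference -0.49, SE 0.58, adjusted p = 0.647). FA replicate 2 was the library far above the others there, and without it the log2 difference was 0.01. In KO males 484, 318 and 349 after FA stood beside 390, 337 and 417 after O3 (log2 difference 0.01, SE 0.40, adjusted p = 0.993), with the O3 range inside that of FA.

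miR-17-5p, the founding member of the family, was carried by few reads. In KO females its values were 59.8, 38.8 and 1.40 after FA and 10.2, 0 and 26.2 after O3, from 2 reads in FA replicate 3 and none in O3 replicate 2. FA replicate 3 and O3 replicate 2 were the low libraries, the latter with 111080 reads in all, so that its count of 0 allows a value of up to 12.9. The log2 difference was -1.42 (SE 1.72, 95% interval -5.37 to 2.53), which became -0.04 without O3 replicate 2 and -2.87 without FA replicate 3.

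In KO males miR-17-5p had values of 120, 98.9 and 230 after FA and 85.8, 48.9 and 128 after O3, with a log2 difference of -0.77 (SE 0.59, adjusted p = 0.939), or -0.42 without FA replicate 3 and -1.10 to -0.41 over all single libraries left out. In co-ex males values of 33.7, 44.4, 8.17 and 29.2 after FA stood beside 42.1, 15.4, 8.64 and 44.0 after O3 (log2 difference -0.13, SE 0.76). In co-ex females 2.63, 11.1, 24.4 and 0 after FA stood beside 8.04, 7.74, 4.73 and 16.1 after O3 (log2 difference 0.70, SE 1.13), from at most 32 reads in a library. The groups overlapped in all 4 tables, and in co-ex females the linear means were 9.54 after FA and 9.15 after O3, the other way round from the log2 difference.

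miR-20a-5p lies downstream of miR-17 in the same transcript and differs from it by 2 bases. In co-ex females its values were 3.94, 17.3, 12.2 and 27.2 after FA and 40.2, 20.6, 27.8 and 26.0 after O3 (log2 difference 1.09, SE 0.80, adjusted p = 0.841). Of the 4 O3 libraries, 2 lay above all FA libraries, and the highest, replicate 1, rested on 10 reads. In co-ex males 32.1, 36.2, 21.8 and 11.7 after FA stood beside 32.01, 37.6, 71.3 and 21.2 after O3 (log2 difference 0.63, SE 0.62, adjusted p = 0.944).

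For miR-20a-5p in KO females, values of 70.0, 0 and 40.5 after FA stood beside 21.2, 43.1 and 33.2 after O3. FA replicate 2 held no read of it in 813151 reads, while the same library held 53 reads of miR-17-5p, and the log2 difference of 1.17 (SE 1.61, 95% interval -2.53 to 4.87) was -0.75 without it. In KO males 162, 113 and 294 after FA stood beside 133, 87.7 and 175 after O3 (log2 difference -0.46, SE 0.55, adjusted p = 0.952), or -0.09 without FA replicate 3 and -0.77 to -0.09 over all single libraries left out.

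The miR-19 seed is carried by 1 member, miR-19b-3p, which is encoded on chromosomes 14 and X. In KO females it had 6, 0 and 0 reads after FA and 7, 5 and 18 after O3, with values of 3.39, 0 and 0 and of 5.94, 21.5 and 13.9. All O3 libraries lay above all FA libraries, but the miRNA passed the filter through its O3 libraries alone, so that being tested already favoured a difference. The log2 difference was 3.02 (SE 1.19, 95% interval 0.28 to 5.75), with an unadjusted p of 0.0343 and an adjusted p of 0.152 by limma, and adjusted p ran from 0.121 to 0.369 over its alternatives. Leaving out O3 replicate 2 gave 2.64, leaving out O3 replicate 3 gave 2.93, and the range over all single libraries left out was 2.64 to 3.73.

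In KO males miR-19b-3p had values of 72.1, 66.2 and 98.5 after FA and 99.4, 32.6 and 15.1 after O3 (log2 difference -1.06, SE 0.75, adjusted p = 0.918). O3 replicates 2 and 3 lay below all FA libraries, and O3 replicate 1 above them. In co-ex males 23.5, 13.8, 0 and 23.4 after FA stood beside 7.32, 2.57, 9.37 and 51.6 after O3 (log2 difference 0.22, SE 1.19). The FA library at 0 was replicate 3, with 126398 reads in all, and without it the log2 difference was -0.88.

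Of the 3p arms that lack the shared seed, miR-106b-3p was the more abundant, with mean levels between 204 and 982 RPM over the 8 groups. In co-ex females it had 44, 273, 166 and 132 reads after FA and 21, 3, 36 and 39 after O3. The values were 57.8, 94.4, 290 and 102 after FA and 84.5, 2.58, 21.3 and 24.1 after O3. O3 replicates 2 to 4 lay below all FA libraries, whereas replicate 1, the library with 41542 reads, lay within the FA range.

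The log2 difference of miR-106b-3p in co-ex females was -2.49 (SE 0.88, 95% interval -4.37 to -0.60), with an unadjusted p of 0.0133 and an adjusted p of 0.556 by limma, the 5th smallest p of 271. Without O3 replicate 1 it was -3.18 with an adjusted p of 0.240, and without O3 replicate 2, which held 3 reads of it, it was -1.65 with an adjusted p of 0.859. Without FA replicate 3 it was -2.04, and the unadjusted p by limma was then 0.0534. The adjusted p ran from 0.240 to 0.927 over its alternatives. In this table the libraries of 0 of 5 members were fully apart, against 4.06% of all tested. Red cell markers differed between the same libraries, with 1 of 3 tested called lower, and their sum was 12810 to 137372 RPM after FA and 2929 to 4284 after O3. Their part in the value of miR-106b-3p was not tested.

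In co-ex males miR-106b-3p values were 146, 228, 117 and 222 after FA and 270, 229, 243 and 220 after O3 (log2 difference 0.48, SE 0.41, adjusted p = 0.944). In KO females 393, 282 and 349 after FA stood beside 289, 362 and 232 after O3 (log2 difference -0.22, SE 0.37, adjusted p = 0.756). In KO males 1194, 975.2 and 2007 after FA stood beside 969, 539 and 1486 after O3 (log2 difference -0.53, SE 0.51, adjusted p = 0.952), or -0.23 without FA replicate 3. The groups overlapped in each of these tables.

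miR-17-3p, the arm opposite miR-17-5p, separated the KO male libraries: values of 81.3, 71.4 and 99.99 after FA all lay above 66.1, 43.9 and 64.9 after O3. The log2 difference was -0.53 (SE 0.48, 95% interval -1.67 to 0.60) with an adjusted p of 0.952. It was the 1 of 7 members whose libraries were fully apart there, against 12.7% of all tested. In RPM the same libraries overlapped, with 53.7 to 68.3 after FA and 38.1 to 56.2 after O3.

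Co-ex males had miR-17-3p values of 2.35, 11.2, 0 and 0 after FA and 10.1, 16.2, 5.76 and 6.07 after O3, from 0 to 30 reads. The log2 difference of 1.95 (SE 1.07, adjusted p = 0.944) came with O3 libraries that all reached the filter minimum of 5 where 1 of 4 FA libraries did, so this miRNA too passed the filter through O3. FA replicate 2 lay above 3 of the O3 libraries, and in this table the libraries of 0 of 7 members were fully apart, against 2.88% of all tested. In KO females values of 19.2, 20.5 and 21.6 after FA stood beside 39.9, 0 and 11.6 after O3 (log2 difference -1.42, SE 1.45), or 0.08 without O3 replicate 2, the library with 111080 reads.

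Because both arms of a hairpin are read in 1 library, the scaling between libraries cancels in their ratio, except through the 1 added to each value, which weighs most where reads are few. For miR-106b the 3p arm had more reads than the 5p arm in 24 of 28 libraries. The 4 exceptions were KO female FA replicate 2, with 412 reads of 5p and 385 of 3p, and co-ex female O3 replicates 2, 3 and 4, with 16 and 3, 99 and 36, and 116 and 39 reads. In log2 of the 5p over the 3p value, each plus 1, these 3 libraries stood at 2.04, 1.42 and 1.53, while O3 replicate 1 stood at -2.32 and the FA libraries at -2.20, -1.19, -5.19 and -2.46.

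The mean log2 arm ratio of miR-106b in co-ex females was thus 0.67 ± 2.01 (SD, n = 4) after O3 and -2.76 ± 1.71 (SD, n = 4) after FA. The difference of 3.43 gave p = 0.0857 in an exact two-sided permutation test, where 4 against 4 libraries allow 0.0286 at the least, and 0.300 after Benjamini-Hochberg adjustment over the 7 arm ratio tests. It remained above 0 whichever library was left out (2.62 to 4.42). In the other 3 tables the difference was -0.87 in co-ex males, -0.27 in KO females and 0.54 in KO males, with exact permutation p of 0.286, 0.9 and 0.5.

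For miR-17 the 5p arm had more reads in 16 of the 20 libraries that list both arms. Of the other 4, KO female O3 replicate 2 had no read of either arm, and its ratio of 0 holds no information. In co-ex males the log2 ratios were 3.37, 1.90, 3.20 and 4.92 after FA and 1.96, -0.07, 0.51 and 2.67 after O3, a difference of -2.08 with an exact permutation p of 0.0857 and an adjusted p of 0.300. FA replicates 3 and 4 had no read of the 3p arm, so their ratios depend on the 1 added to each value.

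KO male libraries held 35 reads or more of either arm, and their miR-17 ratios lay between 0.15 and 1.19. The difference there was -0.24 (exact permutation p = 0.5, where 3 against 3 libraries allow 0.100 at the least). In KO females the ratios ran from -3.24 to 1.59 in the 5 libraries with reads of either arm, and over these the difference was -0.12. The test of this table, 1 of the 7 adjusted over, counted the library without reads, and nothing is read from it. The arm ratio of miR-17 in co-ex females could not be measured, as its 3p arm is not listed in that table.

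**Figure D4:**
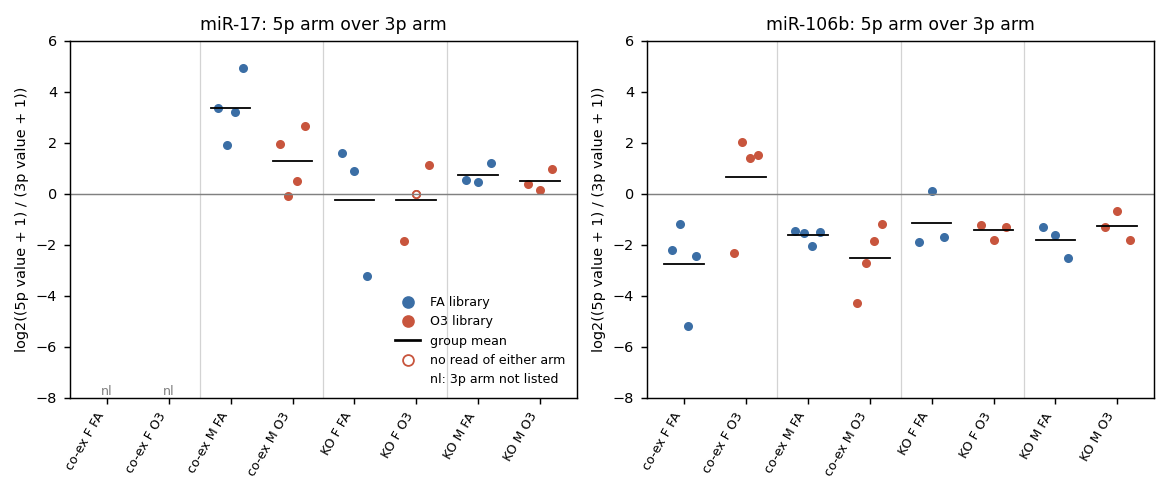
Points give the log2 ratio of the 5p over the 3p value, each plus 1, in every library for miR-17 (left) and miR-106b (right), by group, with lines at the group means; blue is FA, red is O3, the open circle is a library with no read of either arm, and nl marks the table without miR-17-3p. In the right panel 3 of 4 co-ex female O3 libraries lie at 1.42 to 2.04, and in the left panel the co-ex male O3 libraries reach down to -0.07.

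The change after O3 was also compared between the genotypes and between the sexes, by setting the change of one table against that of another in limma. Between co-ex and KO females 0 of 5 members were called, against 8.71% of the 241 miRNAs tested, between co-ex and KO males 0 of 7, against 0% of 305, between males and females of co-ex 0 of 5, against 0% of 249, and between males and females of KO 0 of 7, against 0% of 309. At an unadjusted p under 0.05 there was 1 member in each comparison of the sexes and 0 in each of the genotypes, where the share of all miRNAs tested was 3.21% for the sexes of co-ex, 5.5% for the sexes of KO, 18.3% for females of the genotypes and 1.97% for males. edgeR on the recovered reads called 0 members in each, with a lowest adjusted p of 0.394.

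For miR-106b-3p the change was 0.48 in co-ex males and -2.49 in co-ex females, and the difference, males minus females, was 2.97 (SE 1.02, 95% interval 0.82 to 5.12) with an unadjusted p of 0.00950 and an adjusted p of 0.968 by limma. For miR-19b-3p the change was -1.06 in KO males and 3.02 in KO females, and the difference was -4.07 (SE 1.31, 95% interval -6.94 to -1.21) with an unadjusted p of 0.00940 and an adjusted p of 0.758 by limma. In KO females this miRNA passed the filter through its O3 libraries alone, so that the difference was favoured by being tested. No library enters both tables of a pair. miR-17-3p in males came next, with 1.95 in co-ex and -0.53 in KO, a difference of 2.48 (SE 1.18, 95% interval -0.037 to 5.0) and an adjusted p of 0.949. In co-ex males it too had passed the filter through its O3 libraries.

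For miR-106b-3p in females, with -2.49 in co-ex and -0.22 in KO, the difference was -2.26 (SE 1.16, 95% interval -4.73 to 0.20) with an adjusted p of 0.341 by limma. It passed the threshold in 1 setting, without co-ex female O3 replicate 1, the library with 41542 reads, where it was -2.95 with an adjusted p of 0.0914. With every other library left out in turn the adjusted p was above the threshold.

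The other arms of the 3 clusters were few. Outside the members, 9 distinct arms were listed, 3 in co-ex females, 5 in co-ex males, 5 in KO females and 9 in KO males, of which 3, 4, 5 and 7 were tested. limma called 0 of them in any table, against 0.369%, 0%, 13.2% and 0.909% of all miRNAs tested in the same order. At an unadjusted limma p under 0.05 there was 1 in KO females, against 25.7% of all tested. It was miR-18a-3p, which passed the filter through its FA libraries alone. There were 0 in co-ex females, co-ex males and KO males, against 5.90%, 3.53% and 7.27%. Log2 differences below 0 were found for 3 of 3 in co-ex females (56.8% of all tested) and 3 of 4 in co-ex males (41.7%). In KO mice they were found for 4 of 5 in females (47.0%) and 5 of 7 in males (51.4%).

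miR-92a-3p, at the 3′ end of the miR-17~92 transcript and also encoded on the X chromosome, was far above its neighbours, with mean levels between 6700 and 16258 RPM over the 8 groups. Its log2 difference was -0.31 in co-ex females, -0.33 in co-ex males, 0.06 in KO females and -0.59 in KO males. miR-25-3p, the third miRNA of the cluster within Mcm7, had mean levels between 1348 and 5392 RPM, and log2 differences of -0.68, -0.24, -0.04 and -0.69 in the same order. For both, the FA and O3 libraries overlapped in all 4 tables.

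In KO females the FA libraries of miR-18a-3p and miR-25-5p, passenger arms of the clusters, all lay above their O3 libraries, 2 of the 5 arms tested, against 31.3% of all miRNAs tested there. miR-18a-3p had mean values of 17.7 ± 8.44 (SD, n = 3) after FA and 1.54 ± 2.67 (SD, n = 3) after O3, a log2 difference of -3.26 (SE 1.22, adjusted p = 0.144), and it passed the filter through its FA libraries alone, which already favoured a difference. miR-25-5p had 81.6 ± 80.2 (SD, n = 3) and 11.8 ± 11.9 (SD, n = 3), a log2 difference of -3.15 (SE 1.43, adjusted p = 0.208). Neither passed the threshold.

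Over the 28 libraries, with log2(value + 1) centred within each table, the correlation between members varied. Of the 5 members tested in all tables, miR-93-5p and miR-106b-5p had the highest Pearson correlation (0.62), followed by miR-17-5p and miR-93-5p (0.50). miR-17-5p and miR-20a-5p, neighbours in 1 transcript, had -0.19, and the arms miR-106b-3p and miR-106b-5p had -0.20. Within single tables miR-17-5p and miR-20a-5p had 0.96 over the 6 KO male libraries, which were the deepest table. They had -0.33 in KO females, -0.33 in co-ex males and 0.02 in co-ex females. These values were not tested against each other, and that of KO females includes FA replicate 2, with 0 reads of miR-20a-5p. In KO males miR-17-5p and miR-106b-3p had 0.98. Without FA replicate 3, an alternative chosen after seeing the data, these KO male values were 0.92 and 0.98 over 5 libraries. Red cell markers ran from 5414 RPM in O3 replicate 2 to 112488 in O3 replicate 3 of KO males. Their part in these correlations was not tested. For miR-106b-3p and miR-106b-5p the values were 0.29 in KO males, -0.21 in KO females, 0.07 in co-ex males and -0.31 in co-ex females. For miR-93-5p and miR-106b-5p they were 0.31 in KO males, 0.23 in KO females, 0.72 in co-ex males and 0.62 in co-ex females. The libraries share depth and cell mixture between miRNAs, and libraries with few reads add counting error, so these are descriptions.

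Among the other 225 miRNAs tested in all 4 tables, the ones most like the mean of those 5 members were miR-1198-5p (r = 0.64), miR-25-3p (0.63), miR-186-5p (0.59), miR-15b-5p (0.55) and miR-27b-5p (0.53), over 28 libraries. The median of all 225 was 0.04, with a range from -0.66 to 0.64. Of the 5 named, miR-25-3p alone is encoded in a cluster of the members.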

How the data were processed

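Small RNA of AM was sequenced by the authors, who trimmed reads with the FASTX-Toolkit and counted miRNAs with Chimira; per the labels, CASAVA and edgeR were among the tools. The deposited library values are a normalized signal, reads divided by a size factor, and each of the 4 tables was normalized separately. Whole reads were recovered from 100% of values (tolerance 1e-06) and used for RPM, edgeR and DESeq2. The deposited columns with the authors' own fold changes and p-values were not used. Columns were tied to groups by the library codes in the labels.

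Within each table, limma with a trended prior was run on log2(value + 1). A miRNA entered if its values reached 5 in a number of libraries no lower than the size of the smaller group. A Benjamini-Hochberg adjusted p under 0.1 was a call. Differences of changes were tested over the miRNAs that passed in both tables. Arm ratios were tested by exact two-sided permutation over libraries. Alternatives were total-count scaling, no filter, a pseudocount of 0.1, edgeR's quasi-likelihood test, DESeq2, a block for the replicate number, calls at 0.05, and fits without each single library. The least different pair of replicate libraries had a chi-square of 21.8 per degree of freedom over 36 pairs, so none was counted as a duplicate. The 95% intervals are limma's, from the spread between libraries, and floors of 3 reads cover counting error only.

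The members, the marker lists and the tests were chosen with earlier results of these data known. All 7 members, the listed miRNAs with a member's seed and the 5 miRNAs most alike in centred values are named. Of the other arms of the 3 clusters, miR-93-3p, miR-18a-5p and miR-92a-1-5p were counted but are not described singly. Sequences and positions are from RefSeq (GRCm38.p6), where 7 of 7 members matched, and host genes from the GENCODE annotation of the same build. Models were run with limma 3.58.1, DESeq2 1.42.0 and edgeR 4.0.16 under R 4.3.3, and the rest with scipy 1.17.1, numpy 2.4.6, pandas 2.3.3 and matplotlib 3.10.9 under Python 3.11.15. The fits were tested on simulated data.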

Additional observations from a re-analysis of the deposited data

Results flagged for a closer look

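In groups of 4 libraries, 30 sets of member values or arm ratios were examined for a library far from the other 3, and 3 were found. Chance alone gives about 1 in 20. miR-19b-3p in co-ex males stood at 0, with 0 reads, in FA replicate 3, beside 23.5, 13.8 and 23.4 in the other FA libraries. The arm ratio of miR-106b in co-ex females stood at -2.32 in O3 replicate 1, from 25 reads of both arms, beside 2.04, 1.42 and 1.53. The same ratio in co-ex males stood at -2.06 in FA replicate 3, from 53 reads, beside -1.46, -1.52 and -1.51. The libraries concerned, with 41542 and 126398 reads, were the shallowest of their groups, and the part of depth in these values was not tested.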

How the results depend on the processing

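Leaving out any 1 library, another scaling, a pseudocount of 0.1, edgeR, DESeq2 and the replicate block each gave 0 members called within the 4 tables. Within the tables the sign turned in 7 of 48 alternatives for miR-17-5p and for miR-106b-5p, 4 of 48 for miR-93-5p, 3 of 48 for miR-20a-5p, 2 of 35 for miR-19b-3p, 1 of 35 for miR-17-3p and 0 of 48 for miR-106b-3p. These alternatives include the replicate block, which leaves the log2 difference unchanged, so the sign could not turn there. Depth limits single values: a count of 0 allows a value of up to 12.9 in KO female O3 replicate 2 and 12.1 in co-ex female O3 replicate 1. The cause was not tested for the values that follow.

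For miR-17-5p in co-ex females edgeR gave -0.038 and DESeq2 -0.021, for miR-20a-5p in KO females -0.20 and -0.19, and for miR-106b-5p in KO males DESeq2 gave -0.0083, all with the sign turned. Among differences of changes, miR-20a-5p between co-ex and KO females was 1.19 by edgeR, miR-93-5p between co-ex and KO males was -0.29 by total-count scaling and -0.16 by edgeR, and miR-17-3p between KO males and females was -0.33 by edgeR.

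The number of all miRNAs called was 69 by DESeq2 in KO females against 42. In KO males it was 2 at a threshold of 0.05, 2 by edgeR, 14 by DESeq2 and 1 with the replicate block, against 4. Between co-ex and KO females it was 32 with total-count scaling against 21, and between the sexes of co-ex it was 1 by edgeR against 0. With the replicate number as a block the counts were 1 in co-ex females, 0 in co-ex males, 37 in KO females and 1 in KO males, and 14, 0, 0 and 0 for the differences of changes. Deviations of libraries with the same number had correlations from -0.28 to 0.23 in co-ex females and -0.10 to 0.14 in co-ex males. They ran from -0.02 to 0.04 in KO females and 0.04 to 0.09 in KO males. For libraries with different numbers the ranges were -0.41 to 0.55, -0.24 to 0.32, -0.05 to 0.04 and -0.09 to 0.06 in the same order. So few pairs cannot decide whether the numbers pair the libraries.

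With 1 library left out, the count called was 0 to 1 in co-ex females (0 without O3 replicate 2 or 4), 25 to 52 in KO females (25 without O3 replicate 3) and 0 to 86 in KO males (86 without FA replicate 3, and 2 or fewer without any other). Between co-ex and KO females it was 9 to 31 (10 and 9 without co-ex FA replicates 1 and 4, and 12 without KO O3 replicate 2), and between the sexes of co-ex 0 to 1 (1 without male O3 replicate 4).

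The log2 difference of members that turned sign ran as follows. In co-ex females miR-17-5p ran from -0.14 to 1.41 and miR-93-5p from -0.048 to 0.54. In co-ex males miR-17-5p ran from -0.62 to 0.30, miR-19b-3p from -0.88 to 0.77, miR-93-5p from -0.54 to 0.12 and miR-106b-5p from -0.79 to 0.15. In KO females miR-17-3p ran from -2.59 to 0.082, miR-20a-5p from -0.75 to 2.32 and miR-106b-5p from -0.75 to 0.0074, and in KO males miR-106b-5p from -0.11 to 0.19. For the differences between co-ex and KO, miR-20a-5p in females ran from -1.23 to 1.84, and in males miR-93-5p from -0.26 to 0.40 and miR-106b-5p from -0.80 to 0.14. Between the sexes of co-ex, miR-17-5p ran from -1.54 to 0.016 and miR-20a-5p from -0.81 to 0.025. Between the sexes of KO, miR-17-5p ran from -0.73 to 2.10, miR-17-3p from -0.62 to 2.06, miR-20a-5p from -2.78 to 0.29 and miR-106b-3p from -0.65 to 0.078. The arm ratio difference in KO females ran from -0.64 to 0.36 for miR-106b and from -1.49 to 0.92 for miR-17. That of miR-17 in co-ex females has no value, since the table does not list the 3p arm.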
